A study of Mus musculus with 12 samples.

Results

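A set of 10 long noncoding RNAs that work in the nucleus, host small nucleolar RNAs (snoRNAs) or come from imprinted regions were followed in mouse blood progenitors of 4 genotypes. They were Malat1, Neat1, Gas5, Snhg1, Snhg3, Meg3, Rian, Mirg, H19 and Kcnq1ot1, taken by symbol from the 55450 genes of the deposited table. All 10 had a row, 6 of them passed the filter on low counts among 14346 genes tested, and Meg3, Rian, Mirg and H19 did not. The cells were donor Lin- ckit+ cells, that is, marrow cells without mature lineage markers and with the receptor Kit, sorted from mice that had received a competitive bone marrow transplant. The donor genotype was wild type (WT), Tet2 KO, Id1 KO or Tet2 KO + Id1KO, written WT, Tet2KO, Id1KO and dKO below, with 3 libraries each. Total RNA was sequenced after removal of ribosomal RNA with a stranded kit. Tet2 encodes an enzyme that oxidises methylated cytosine, and Id1 a protein that blocks the DNA binding of E proteins. The strain, sex and age of the mice and the kind of null allele were not given in the sources used here.

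Malat1 sits in nuclear speckles, the stores of splicing factors, and Neat1 is the scaffold on which paraspeckles are built. Gas5, Snhg1 and Snhg3 carry snoRNAs in their introns. The snoRNAs are released when the introns are processed and guide or assist the maturation of ribosomal RNA, while the spliced host RNAs begin with a terminal oligopyrimidine tract, as ribosomal protein mRNAs do, and are commonly removed by nonsense-mediated decay. Meg3, Rian and Mirg are made from the maternal copy of the Dlk1-Dio3 region, H19 from the maternal copy next to Igf2, and Kcnq1ot1 from the paternal copy, starting in an intron of Kcnq1 on the opposite strand and silencing genes around it.

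Libraries held 15706407 to 19959183 estimated counts and the biological coefficient of variation common to all genes was 0.0305. In the titles the 3 libraries of a genotype carry 1 and the same sample number and differ by a suffix of unstated meaning, so they may be repeats of 1 cell sample and p-values measure only the spread between these libraries. Gaps between the libraries of genotypes are described below for single RNAs. The share of all genes with such gaps was not counted. Library 1 of WT and library 2 of dKO stood apart, with a chi-square per degree of freedom of 4.18 to 5.35 against the libraries of their own genotype, where other pairs gave 1.52 to 3.5. The labelled knockouts were not seen as lower RNA: Tet2 was at 99.3 ± 2.2 CPM (scaled counts per 1000000; SD, n = 3) in WT, 92 ± 1.5 in Id1KO, 130 ± 2.5 in Tet2KO and 118 ± 3.1 in dKO, and Id1 at 1.47 ± 0.27, 3.96 ± 0.34, 3.86 ± 0.42 and 3.93 ± 0.5. Where these alleles are cut was not given in the sources used here, so directions below belong to libraries labelled with a genotype. Xist, the RNA of the inactive X chromosome, also differed, with 252 to 272 CPM across the WT libraries, 9.89 to 12 across Tet2KO, 60.5 to 69 across Id1KO and 16.3 to 17 across dKO, and its part in the results was not tested. The 7 progenitor markers, Kit among them, were all tested and summed to 1605 to 1800 CPM, but single markers changed: all 7 passed in Tet2KO against WT (5 higher, 2 lower, where 32.8% of all genes passed), among them the cytokine receptor gene Flt3 at 0.53 (log2 fold change, edgeR adjusted p = 8.54e-10) and the transcription factor gene Gata2 at -0.24 (0.000499), and 5 of 7 passed in dKO against WT (19.2%). Their part in the results was not tested.

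The promoters of 4 of these RNAs and a pair of hosted snoRNAs are shown first, because the 3 hosts moved together, Kcnq1ot1 moved the other way, and the snoRNA pair is almost identical. The promoters run 5′ to 3′ from 250 bases before to 50 bases after the annotated start, from RefSeq on GRCm38.p6, and capitals mark every match to TATAA or CCAAT on either strand. They lie at chr1:161034916-161035215 (plus strand) for Gas5, chr19:8723237-8723536 (plus) for Snhg1, chr4:132353637-132353936 (minus) for Snhg3 and chr7:143296498-143296797 (minus) for Kcnq1ot1.
Gas5: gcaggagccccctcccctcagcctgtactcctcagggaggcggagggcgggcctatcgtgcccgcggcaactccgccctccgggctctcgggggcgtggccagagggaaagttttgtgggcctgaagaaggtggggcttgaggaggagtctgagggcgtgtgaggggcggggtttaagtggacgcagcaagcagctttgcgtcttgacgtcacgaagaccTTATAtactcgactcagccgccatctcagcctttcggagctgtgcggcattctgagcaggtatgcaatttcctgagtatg
Snhg1: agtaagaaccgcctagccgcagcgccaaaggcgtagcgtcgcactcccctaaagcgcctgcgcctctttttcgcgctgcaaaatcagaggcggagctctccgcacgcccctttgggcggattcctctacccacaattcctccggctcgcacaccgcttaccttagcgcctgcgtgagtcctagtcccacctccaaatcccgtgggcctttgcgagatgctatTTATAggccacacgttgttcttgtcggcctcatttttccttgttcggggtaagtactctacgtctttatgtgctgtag
Snhg3: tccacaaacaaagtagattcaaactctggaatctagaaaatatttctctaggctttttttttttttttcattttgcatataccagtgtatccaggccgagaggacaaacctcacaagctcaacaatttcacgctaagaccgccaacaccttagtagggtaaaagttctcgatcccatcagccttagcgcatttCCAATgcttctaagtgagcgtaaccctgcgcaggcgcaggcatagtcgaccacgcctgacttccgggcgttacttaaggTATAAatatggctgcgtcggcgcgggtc
Kcnq1ot1: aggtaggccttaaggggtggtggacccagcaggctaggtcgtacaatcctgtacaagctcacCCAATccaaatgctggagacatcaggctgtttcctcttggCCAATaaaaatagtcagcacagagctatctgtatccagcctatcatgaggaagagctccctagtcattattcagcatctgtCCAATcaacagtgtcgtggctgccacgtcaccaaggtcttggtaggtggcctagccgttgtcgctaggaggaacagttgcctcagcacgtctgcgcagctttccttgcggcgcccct
The Gas5 and Snhg1 windows have a TATAA match at -30 and -28 from the start, and the Snhg3 window has one at 23, after the start. TATAA is found in 24.9% of 32851 such promoters. Kcnq1ot1 has 3 CCAAT matches and no TATAA, and CCAAT occurs in 37.4% of promoters. The Gas5 window also holds TGACGTCA at -46, a palindrome found in 1.79% of promoters that matches in neither of the other host windows. Gas5 had another entry in the table; the one shown has 10 GENCODE transcript starts within 10 bases. Of the 10 RNAs, 8 had an entry.

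The snoRNAs Snora73a (chr4:132352775-132352979) and Snora73b (chr4:132352322-132352526), both on the minus strand of GRCm38 inside Snhg3, are shown from GENCODE M21 with capitals at the 7 positions where they differ.
Snora73a: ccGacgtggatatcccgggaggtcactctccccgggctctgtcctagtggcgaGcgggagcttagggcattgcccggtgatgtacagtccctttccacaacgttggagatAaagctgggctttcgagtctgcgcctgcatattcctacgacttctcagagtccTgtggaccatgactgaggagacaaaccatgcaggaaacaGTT
Snora73b: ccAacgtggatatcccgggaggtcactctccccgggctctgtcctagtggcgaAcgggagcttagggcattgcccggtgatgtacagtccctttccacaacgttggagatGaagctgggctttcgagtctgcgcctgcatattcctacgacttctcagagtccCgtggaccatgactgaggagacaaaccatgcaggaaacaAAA
The 205 bases are 96.6% identical. Counted from 1 at the first base of Snora73a, the substitutions are G3A, G54A, A111G, T164C, G203A, T204A and T205A. Reads that cover none of these positions cannot be assigned to one copy, so the split between the 2 rows is uncertain. Of Snora73a, 159 bases also lie in an annotated exon of Snhg3.

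Among libraries labelled Tet2KO against WT, 4 of the 6 tested RNAs passed an edgeR adjusted p of 0.05, where 32.8% of all 14346 genes did (16.6% higher, 16.2% lower). Kcnq1ot1 rose and Gas5, Snhg1 and Snhg3 fell. Among libraries labelled dKO against Id1KO, the same step on the other Id1 label, 5 of 6 passed against 19.3% of all genes (10.6% higher, 8.7% lower): the same 4 in the same directions, and Malat1, which fell. The median log2 fold change of the 6 was -0.13 and -0.21, where that of all genes was -0.00 in both. Fewer cells of a type and less RNA per cell cannot be told apart in these bulk samples.

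In the contrasts along the Id1KO label, Malat1, Snhg1 and Kcnq1ot1 passed and the other 3 did not. In Id1KO against WT 2 passed, with 15% of all genes (7.26% higher, 7.77% lower): Malat1 rose and Snhg1 fell. In dKO against Tet2KO 1 passed, Kcnq1ot1, which rose, where 26.4% of all genes passed (13.1% higher, 13.4% lower). In dKO against WT 4 passed, with 19.2% of all genes (10.2% higher, 8.97% lower), Kcnq1ot1 higher and the 3 hosts lower. The interaction subtracts the log2 fold change of Id1KO against WT from that of dKO against Tet2KO; 3 of 6 passed it, Malat1, Snhg1 and Kcnq1ot1, with 14.5% of all genes (7.46% higher, 7.03% lower).

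**Figure D1:**
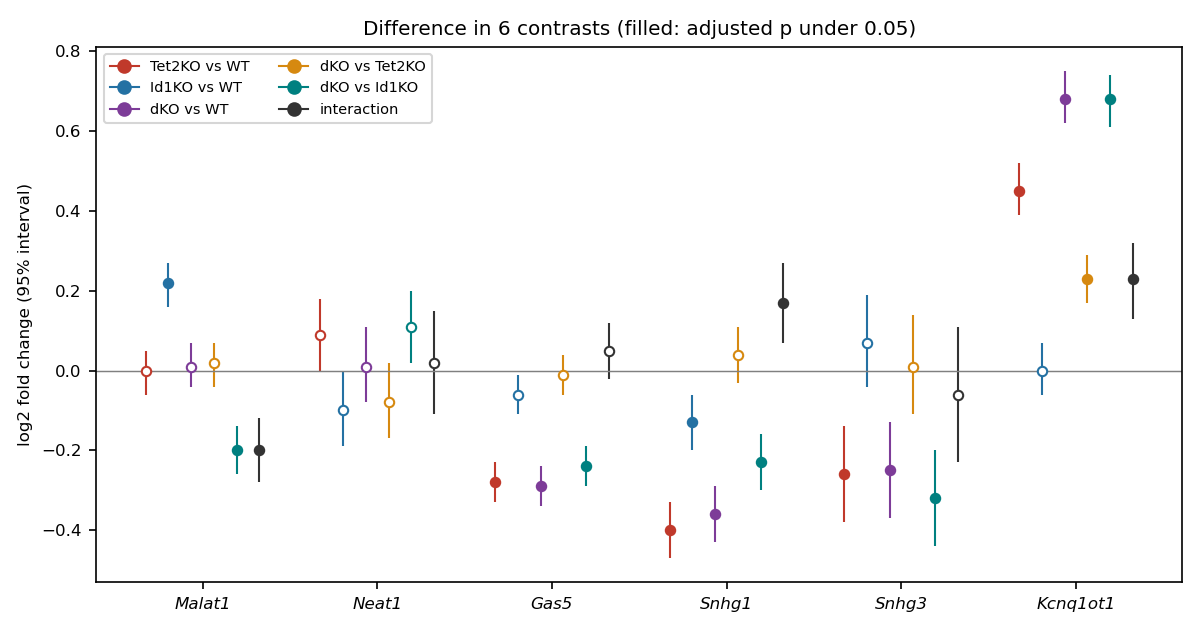
Log2 fold change (y axis, with 95% interval) of the 6 tested RNAs (x axis) in 6 contrasts fitted together in edgeR; filled points have an adjusted p under 0.05. Kcnq1ot1 reaches 0.68 in both contrasts of dKO with a genotype without the Tet2KO label, the 3 snoRNA hosts lie between -0.23 and -0.40 in the contrasts along that label, and all points of Neat1 are open.

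These calls rest on libraries taken as separate samples. With the 3 libraries of a genotype summed into 1 and additive effects of both labels fitted in edgeR, which leaves 1 residual degree of freedom, Kcnq1ot1 alone among the 6 passed, along the Tet2KO label (0.57, adjusted p = 0.0235), and Gas5 was at -0.26 (0.0518), Snhg1 at -0.31 (0.0715) and Snhg3 at -0.29 (0.166).

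Kcnq1ot1 was the RNA with the widest range between genotypes. Its row is 1 exon of 93092 bases on chromosome 7, 143203458 to 143296549, minus strand. It was at 249, 239 and 235 CPM in the WT libraries, 244, 241 and 239 in Id1KO, 318, 335 and 334 in Tet2KO and 377, 407 and 374 in dKO. The WT and Id1KO values lie among each other, every Tet2KO value is above them, and every dKO value is above Tet2KO. In Tet2KO against WT the log2 fold change was 0.45 ± 0.03 (SE; edgeR adjusted p = 3.54e-09), and it was 0.68 ± 0.03 in dKO against Id1KO (1.41e-11). Id1KO against WT gave 0.00, with a 95% interval of -0.06 to 0.07, whereas dKO against Tet2KO gave 0.23 ± 0.03 (3.34e-05). The test of that difference passed, with an interaction of 0.23 ± 0.05 (adjusted p = 0.00299). Per kilobase of exon Kcnq1ot1 was at 3.21 CPM, the lowest level per length of the 6.

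Kcnq1, the potassium channel gene in whose body Kcnq1ot1 lies, had 4 counts over all 12 libraries. Cdkn1c, a cell cycle inhibitor of the same imprinted domain, had 83, from 4 to 12 a library, and did not pass the filter. Of 13 tested neighbours in the H19 and Kcnq1ot1 region, 2 rose, 4 fell and 7 did not pass in Tet2KO against WT (46.2% called, background 32.8%), and 1 rose, 2 fell and 10 did not pass in dKO against Id1KO (23.1%, background 19.3%). The median log2 fold change was -0.04 and 0.03. Lsp1, an actin-binding protein of leukocytes next to H19, passed in all 6 contrasts, though the call ended when any 1 of 5 libraries was left out in Id1KO against WT (adjusted p up to 0.157), or any 1 of 3 in dKO against WT (up to 0.0831). It went from 35.4 ± 0.33 CPM in WT to 57.6 ± 0.75 in Tet2KO (0.70 ± 0.05, adjusted p = 5.04e-09), and was at 30.8 ± 2.7 in Id1KO and 40.6 ± 2.4 in dKO. Cd81, a tetraspanin, fell along the Tet2KO label by 0.15 against WT (adjusted p = 0.00467) and by 0.18 against Id1KO (0.00175). Tspan32, another tetraspanin gene of the domain, was at 120 ± 4.5 CPM in WT, 119 ± 2.6 in Id1KO, 115 ± 1.4 in Tet2KO and 107 ± 1.9 in dKO, and passed in the 3 contrasts that include dKO, that against Tet2KO not without Tet2KO library 2 (0.0597) or dKO library 3 (0.0673). Nap1l4, which encodes a histone chaperone, passed in 1 contrast, Tet2KO against WT (-0.13, adjusted p = 0.00127).

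Imprinted genes elsewhere passed more often than all genes in some contrasts and not in others. Of 25 tested, 8 rose and 2 fell in Tet2KO against WT (40%, background 32.8%), with a median of 0.10. Of all genes 16.6% rose and 16.2% fell there. In dKO against WT 4 rose and 4 fell (32%, background 19.2%), and in dKO against Id1KO 2 rose and 2 fell (16%, background 19.3%). The share was 12% in Id1KO against WT (background 15%) and 24% in dKO against Tet2KO (26.4%). Igf2r, a receptor that clears insulin-like growth factor 2, fell from 27.6 ± 0.2 CPM in WT to 15.3 ± 0.66 in Tet2KO (-0.85 ± 0.06, adjusted p = 4.95e-09) and from 28.8 ± 2.2 in Id1KO to 23.7 ± 1.3 in dKO (-0.28 ± 0.06, 0.00239). H13, an intramembrane protease, rose in Tet2KO against WT (0.31 ± 0.03, 6.23e-08). It fell along the Id1KO label, in Id1KO against WT (-0.16, 0.000602) and in dKO against Tet2KO (-0.46 ± 0.03, 3.96e-10). H13 lies near Id1 on chromosome 2, at 152669461 to 152708670, where Id1 is at 152736251 to 152737410. The part of this position in its falls was not tested. Ube3a, a ubiquitin ligase, was higher than WT in the 3 other genotypes by 0.14 to 0.20. Among genes that keep or remove methylation, Tet3, another oxidase of the Tet family, was at 136 ± 8.4 CPM in WT, 129 ± 4.7 in Id1KO, 182 ± 2.9 in Tet2KO and 169 ± 6.5 in dKO. It rose along the Tet2KO label by 0.42 against WT (adjusted p = 7.61e-08) and by 0.39 against Id1KO (5.94e-07), while Dnmt1 and Trim28, which keep imprints methylated, differed by 0.06 or less in size and did not pass. Uhrf1, which guides Dnmt1 to DNA, passed in 4 contrasts with small values: -0.07 in Id1KO against WT (0.0457), 0.07 in dKO against Tet2KO (0.0408), 0.10 in dKO against Id1KO (0.00737) and an interaction of 0.14 (0.00812). The calls in Id1KO against WT and dKO against Tet2KO ended under a replicate block (0.0739 and 0.0637), in DESeq2 (0.0659 and 0.0546) and when any 1 of 10 and of 9 libraries was left out (up to 0.193 and 0.161).

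The other 4 imprinted RNAs were at or near 0. Mirg had 0 counts in all 12 libraries, and a count of 0 allows up to 0.155 to 0.19 CPM, depending on the library (3 counts; counting error only). Meg3 had 0 counts in the 9 libraries of WT, Tet2KO and Id1KO, and 1, 4 and 1 in dKO. Only 1 of the 12 libraries, dKO library 2, which stood apart, reached more than 3 counts, so a fold is not given. Rian had 9 counts in all, 2 in WT, 2 in Id1KO, 3 in Tet2KO and 2 in dKO, and H19 had 11, split as 4, 4, 2 and 1. At this depth no difference was detectable for Rian and H19.

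The rows encoded inside these 4 RNAs were empty too. Meg3, Rian, Mirg and H19 hold 2, 4, 14 and 1 miRNA rows, 21 together, and Rian also holds 13 snoRNA rows; all had 0 counts. Mature miRNAs are shorter than the fragments that such a library keeps, so these rows do not measure them. Short snoRNA rows were also almost empty inside the abundant Gas5, where Snord78, of 66 bases, had 0 counts. The empty rows of Rian therefore do not show that its snoRNAs are absent. Some protein genes of the same regions were as low, with 13 counts for Dlk1, a ligand-like membrane protein of progenitors, 0 for Dio3 and Rtl1, and 1 for Igf2, whereas Begain had 89, from 2 to 17 a library. Of 5 tested genes at the edge of the Dlk1-Dio3 region, Wars, a tryptophan tRNA ligase, fell in Tet2KO against WT (-0.22 ± 0.03, adjusted p = 5.79e-05), and Ppp2r5c, a phosphatase subunit, passed in 1 contrast, dKO against WT (-0.09, 0.0192), a call that ended without WT library 2, dKO library 1 or dKO library 3 (up to 0.102).

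**Figure D2:**
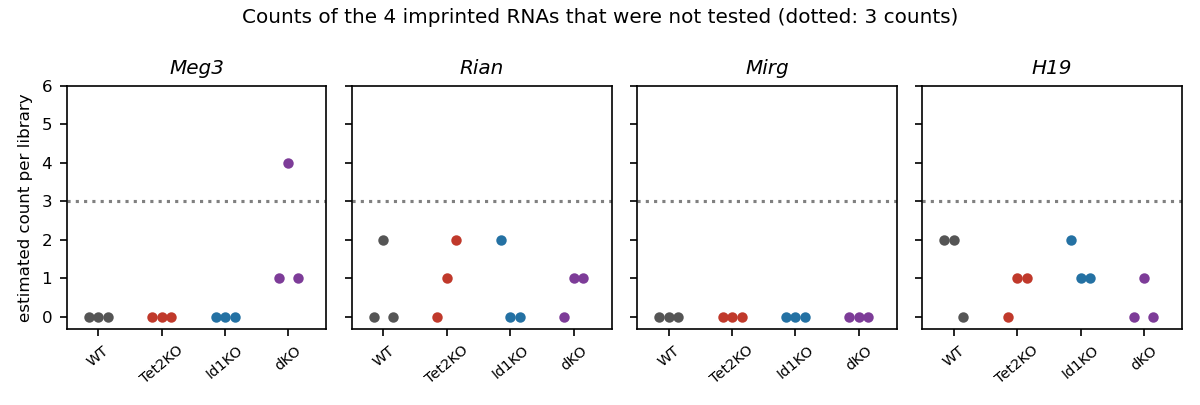
Estimated counts (y axis) of Meg3, Rian, Mirg and H19 in each of 12 libraries, grouped by genotype on the x axis; the dotted line marks 3 counts. A single point, Meg3 in dKO library 2 with 4 counts, lies above the line, and all points of Mirg are at 0.

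Gas5, Snhg1 and Snhg3 were each lower where the Tet2KO label was present. Gas5, named for its build-up in growth-arrested cells, lies on chromosome 1 from 161034422 to 161038539, plus strand. It was at 732, 756 and 752 CPM in the WT libraries, 713, 707 and 733 in Id1KO, 618, 615 and 606 in Tet2KO and 597, 619 and 613 in dKO. All 6 libraries with the Tet2KO label are below all 6 without it. Libraries also lay apart for genes that were not called, as for Dnmt1 in Tet2KO against WT (edgeR adjusted p = 0.203). For Gas5 the log2 fold change was -0.28 ± 0.03 in Tet2KO against WT (adjusted p = 6.15e-08) and -0.24 ± 0.03 in dKO against Id1KO (1.37e-06). Along the Id1KO label it was -0.06 (interval -0.11 to -0.01, adjusted p = 0.152) and -0.01 (-0.06 to 0.04, 0.851), and the interaction of 0.05 (-0.02 to 0.12) did not pass.

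Snhg1, on chromosome 19 from 8723475 to 8726443, plus strand, hosts C/D box snoRNAs. Its level was 242, 251 and 244 CPM in WT, 225, 213 and 234 in Id1KO, 181, 190 and 188 in Tet2KO and 184, 201 and 190 in dKO. The 6 libraries with the Tet2KO label again lie below the others, and Id1KO lies between them and WT without touching either. Snhg1 fell by 0.40 in Tet2KO against WT (SE 0.04, adjusted p = 4.81e-08), the largest drop of the 3 hosts there, and by 0.23 in dKO against Id1KO (SE 0.04, 0.000121). It also fell in Id1KO against WT (-0.13 ± 0.03, 0.0134), a call that ended without WT library 2 (adjusted p = 0.07) or Id1KO library 2 (0.0822). The interaction of 0.17 ± 0.05 passed at 0.0255 and was lost when any of 5 libraries was left out, with adjusted p-values of up to 0.0738.

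Snhg3, on chromosome 4 from 132348014 to 132353686, minus strand, was the least abundant of the 3. It was at 29, 27.9 and 26.5 CPM in WT, 28.6, 30.2 and 28.9 in Id1KO, 22.5, 22.7 and 24.3 in Tet2KO and 21.6, 25.5 and 23.2 in dKO. The 6 libraries with the Tet2KO label are below the others here too, with the gap smallest between dKO library 2 and WT library 3. The log2 fold change was -0.26 ± 0.06 in Tet2KO against WT (adjusted p = 0.00256) and -0.32 ± 0.06 in dKO against Id1KO (0.00085). The call in dKO against WT (-0.25, 0.00732) was lost without dKO library 1 (-0.19, 0.0541). Snhg3 shares 159 bases of exon with the snoRNA Snora73a, which had 41425 counts against 5576 for Snhg3. It also shares 135 bases with Rcc1, the exchange factor of the GTPase Ran, on the same strand. Part of the Snhg3 counts therefore depends on how RSEM divided reads. Rcc1 itself fell in Tet2KO against WT (-0.15 ± 0.03, 0.00231) and rose in dKO against Tet2KO (0.20 ± 0.04, 0.000233).

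**Figure D3:**
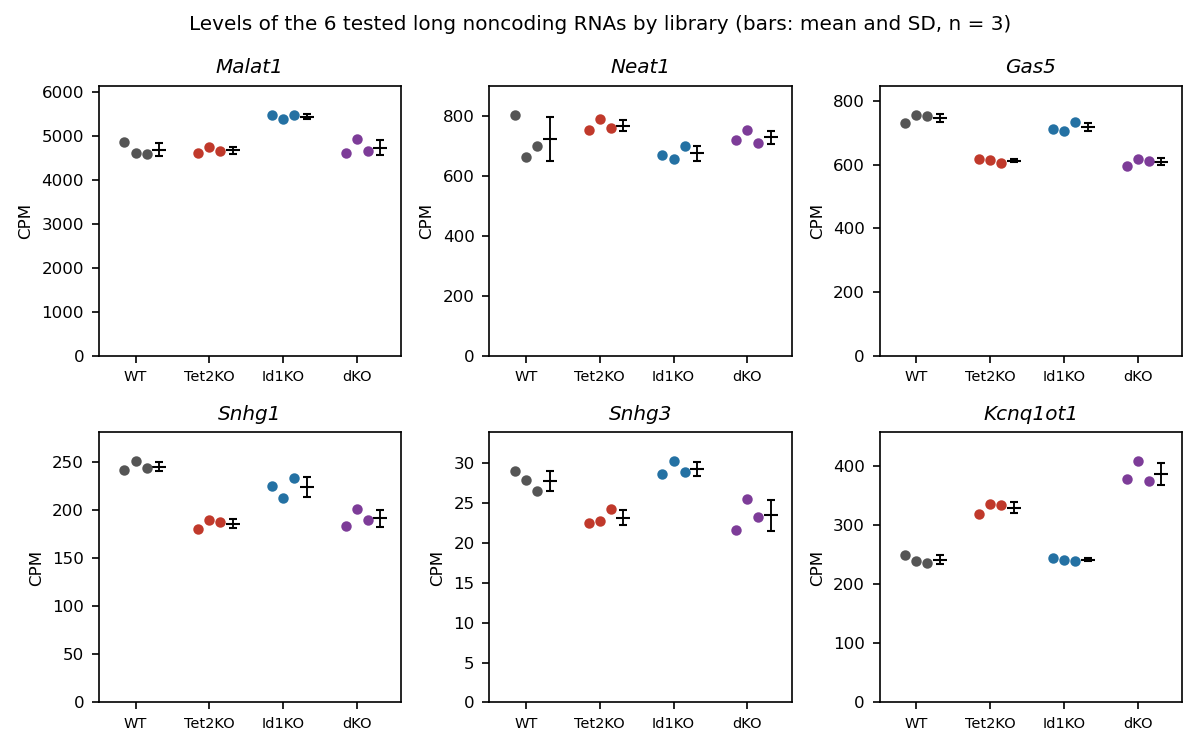
CPM (y axis, from 0) of the 6 tested RNAs in each library, by genotype on the x axis, with mean and SD over 3 libraries beside the points. In the panels of Gas5, Snhg1 and Snhg3 all Tet2KO and dKO points lie below all WT and Id1KO points, in that of Kcnq1ot1 they lie above, and in that of Malat1 the Id1KO points stand above the rest. The share of all genes whose points lie apart in this way was not counted.

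Other snoRNA hosts fell too. Of 13 further hosts that were tested, 8 fell in Tet2KO against WT and 5 did not pass, where 16.2% of all genes fell, and the median log2 fold change was -0.30 against -0.00 for all genes. In dKO against Id1KO 3 fell and 10 did not pass, where 8.7% of all genes fell, with a median of -0.12. Along the Id1KO label 5 fell and 1 rose against WT (46.2%, background 15%), with a median of -0.14. In dKO against Tet2KO 1 rose and 1 fell (15.4%, background 26.4%), with a median of 0.03. Zfas1, host of the Snord12 family, went from 130 ± 3.7 CPM in WT to 101 ± 3.9 in Tet2KO, 112 ± 3.7 in Id1KO and 108 ± 1.9 in dKO. Snhg5 was at 115 ± 6.1, 104 ± 7.1, 88 ± 4.2 and 97.3 ± 0.67 in the order WT, Id1KO, Tet2KO, dKO, and Snhg12, a neighbour of Snhg3 on chromosome 4, at 79.8 ± 2.2, 58.4 ± 2.2, 63.4 ± 1.7 and 55.1 ± 1.5. All 3 were thus lower than WT in every other genotype, Snhg5 in Id1KO only with all of 5 libraries kept (0.0343; up to 0.217 without 1 of them), whereas Gas5 and Snhg3 in Id1KO were not called against WT. In dKO against Id1KO the values of Zfas1 (-0.06, 0.283), Snhg5 (-0.09, 0.173) and Snhg12 (-0.08, 0.159) did not pass, and those of Gas5, Snhg1 and Snhg3 did. The 3 further hosts that fell there were Snhg9 (-0.84, 0.00938, at 1.53 CPM in dKO), Snhg20 (-0.23, 0.0435) and Snhg17 (-0.14, 0.0342). Whether these 3 calls hold without single libraries is not given here. The difference between these hosts was not tested.

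**Figure D4:**
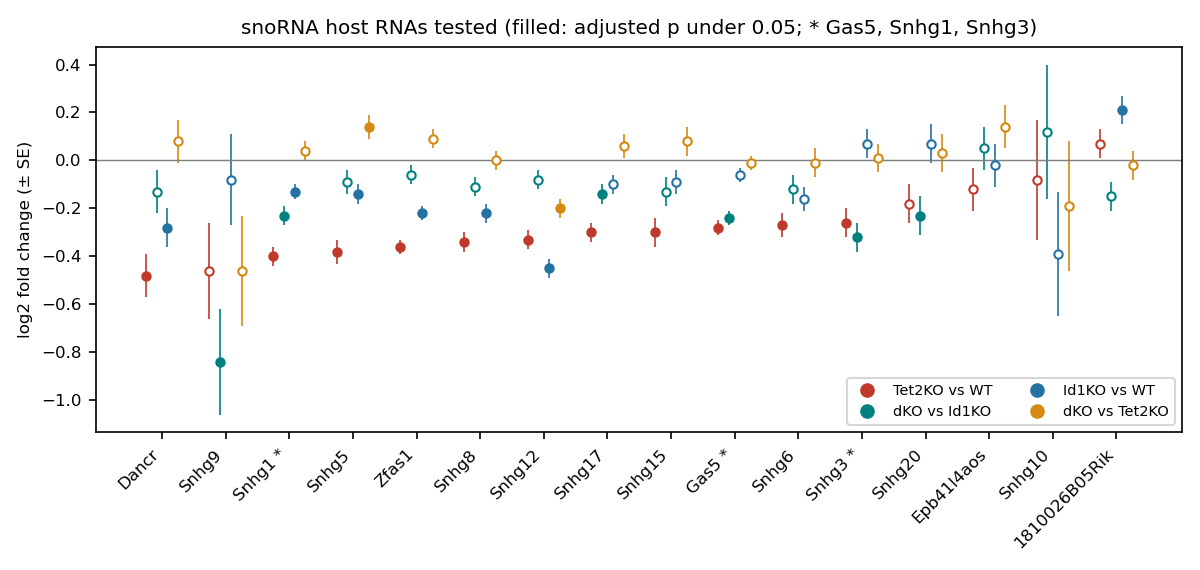
Log2 fold change with its SE (y axis) of 16 snoRNA host RNAs (x axis, ordered by the change in Tet2KO against WT; stars mark Gas5, Snhg1 and Snhg3) in 4 contrasts; filled points have an edgeR adjusted p under 0.05. Most red points, Tet2KO against WT, lie between -0.2 and -0.5, and the 3 starred hosts have filled points in dKO against Id1KO where most others are open.

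Factors of nonsense-mediated decay showed no common direction in Tet2KO against WT. Of 16 genes of nonsense-mediated decay, 3 rose and 3 fell in Tet2KO against WT (37.5%, background 32.8%). Smg1, the kinase that activates Upf1, rose along the Tet2KO label by 0.34 (adjusted p = 3.35e-08) and 0.21 (4.01e-05), Smg6, which cuts the targeted RNA, rose by 0.25 against WT (2.02e-06), and Rnps1, of the exon junction complex, fell by 0.12 (0.00187). Upf2 was higher than WT in all 3 other genotypes by 0.18 to 0.22, in Id1KO not past the threshold without WT library 3 (0.0519) or Id1KO library 1 (0.0556). Of 22 mRNAs with a terminal oligopyrimidine tract that do not encode ribosomal proteins, 1 rose and 7 fell in Tet2KO against WT (36.4%, background 32.8%). Of all genes 16.6% rose and 16.2% fell there, the share called was near the background, and the median was -0.05. The split differed elsewhere: 2 rose and 2 fell in dKO against WT (18.2%, background 19.2%). In dKO against Tet2KO 5 rose and 1 fell (27.3%, background 26.4%). In dKO against Id1KO 2 rose and 3 fell (22.7%, background 19.3%). Npm1, a nucleolar chaperone, fell by 0.15 in Tet2KO against WT (0.00113), and Pabpc1, the poly(A)-binding protein, rose by 0.29 (0.000126). Eef1a1, the elongation factor that brings tRNA to the ribosome, fell in dKO against Id1KO by 0.09 (0.0123), and did not pass without dKO library 3 (0.0519).

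The snoRNAs inside Snhg3 were lower than WT in libraries labelled Id1KO, where Snhg3 itself did not pass; the difference between host and snoRNA was not tested. Snora73a and Snora73b, H/ACA box snoRNAs needed for cutting the ribosomal RNA precursor, lie in Snhg3 and also within Rcc1 on the same strand. They had 63482 counts together, against 206 for the 10 snoRNA rows in Gas5 and 1155 for the 8 in Snhg1. The rows in Gas5 and Snhg1 are 60 to 126 bases long and each Snora73 row 205, so these counts are not a like comparison. Snora73a was at 274, 259 and 247 CPM in WT, 156, 148 and 172 in Id1KO, 207, 184 and 190 in Tet2KO and 158, 153 and 159 in dKO. Every library of the 3 other genotypes is below WT, and Tet2KO is above Id1KO and dKO, which overlap. The log2 fold change was -0.43 ± 0.05 in Tet2KO against WT (adjusted p = 8.61e-07) and -0.71 ± 0.05 in Id1KO against WT (2.26e-09), where Snhg3 itself was at 0.07 (interval -0.04 to 0.19).

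Snora73b was at 136, 128 and 120 CPM in WT, 80.5, 78.5 and 88.5 in Id1KO, 105, 94.7 and 99.5 in Tet2KO and 98.6, 94.6 and 109 in dKO. WT is again the highest, and Id1KO is the lowest with no overlap. It fell by 0.64 in Id1KO against WT (7.52e-08) and rose in dKO against Id1KO (0.29 ± 0.06, 0.000955), where Snora73a was at -0.02 (interval -0.12 to 0.08). With the libraries of a genotype summed and additive effects fitted, no Snora73 call remained: in Tet2KO against WT Snora73a was at -0.22 (0.329) and Snora73b at -0.03 (0.936), and in Id1KO against WT they were at -0.51 (0.3) and -0.31 (0.509). Because the 2 rows are so alike, their sum depends less on the split of reads: 388 ± 21 CPM in WT, 241 ± 17 in Id1KO, 294 ± 17 in Tet2KO and 257 ± 10 in dKO. Snora73a per Snhg3 read was 9.35 ± 0.084 in WT, 5.44 ± 0.53 in Id1KO, 8.38 ± 0.73 in Tet2KO and 6.72 ± 0.67 in dKO. Both snoRNAs also lie within the gene span of Rcc1 on the same strand, from 132331919 to 132353605. Per kilobase of exon and over all libraries, Rcc1 was at 29.8 CPM and Snhg3 at 26.3. The ratio of Snora73a to Snhg3 covers Snhg3 alone, and the part of Rcc1 as a host was not tested. Snora73a and Snhg3 share 159 bases of exon, so this ratio also depends on how reads were divided. Small structural RNAs as a class moved with these snoRNAs, taking 8.62 to 8.88% of counts in WT, 6.01 to 6.5% in Id1KO, 6.03 to 6.16% in Tet2KO and 5.74 to 6.66% in dKO; their part in the result was not tested.

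In Snhg1, Snord22 was the only snoRNA row of at least 1 CPM. It was at 5.8 ± 0.97 CPM in WT, 4.25 ± 0.58 in Id1KO, 6.36 ± 0.24 in Tet2KO and 5.11 ± 0.76 in dKO. The fall in Id1KO against WT (-0.45 ± 0.14, adjusted p = 0.038) was lost when any of 4 libraries was left out, with adjusted p-values of 0.0595 to 0.165, and in DESeq2 (0.0904). In Tet2KO against WT, where Snhg1 fell by 0.40, Snord22 was at 0.13 (interval -0.14 to 0.40). The snoRNA rows of Gas5 and Snhg1 are also exons of transcripts of these genes that keep introns, so reads from the 2 cannot be fully told apart. Slc3a2, an amino acid transporter subunit that starts beside Snhg1 and is read away from it on the opposite strand, fell in Tet2KO against WT (-0.13, 0.00606), and Zbtb37, whose gene overlaps the start of Gas5 on the opposite strand, rose (0.25, 0.00531).

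**Figure D5:**
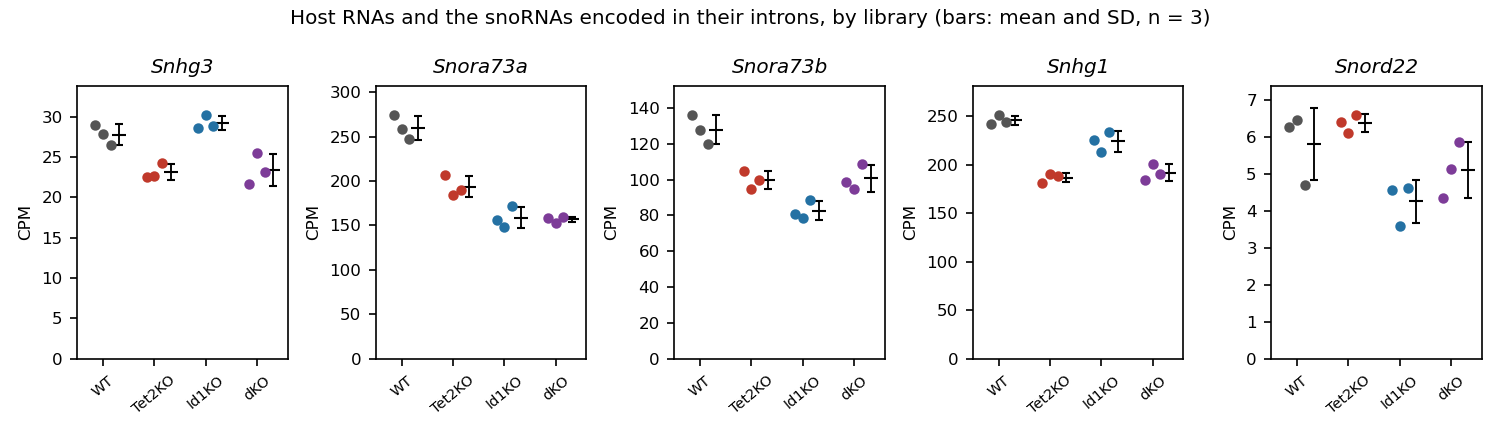
CPM (y axis, from 0) in each library by genotype (x axis) of Snhg3 with its snoRNAs Snora73a and Snora73b, and of Snhg1 with Snord22; bars give mean and SD over 3 libraries. Snhg3 is high in WT and Id1KO, whereas both Snora73 rows are lowest in Id1KO or dKO and highest in WT.

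Malat1, the most abundant of the 10, was higher in libraries labelled Id1KO than in the others. Its row spans 5795690 to 5802672 on chromosome 19, minus strand, and held 0.447 to 0.553% of all counts, which made it the 9th or 10th gene by CPM in every library. The level was 4858, 4608 and 4595 CPM in WT, 5470, 5377 and 5479 in Id1KO, 4605, 4761 and 4663 in Tet2KO and 4611, 4925 and 4663 in dKO. The Id1KO libraries lie above all others, and WT, Tet2KO and dKO lie among each other. The log2 fold change was 0.22 ± 0.03 in Id1KO against WT (adjusted p = 3.58e-05) and -0.20 ± 0.03 in dKO against Id1KO (4.15e-05). In dKO against Tet2KO it was 0.02 (interval -0.04 to 0.07), and the interaction was -0.20 ± 0.04 (0.00273). The sum of megakaryocyte markers moved with it. All 4 were tested and none was at 0. They summed to 161 to 171 CPM in Id1KO against 114 to 118 in WT, 117 to 127 in Tet2KO and 114 to 128 in dKO. Most of the sum was Itga2b (111 CPM in Id1KO, 83.9 in WT) and Pf4 (51.5 and 29.3). In Id1KO against WT 2 of the 4 passed, both higher (50%, background 15%). Their part in the result was not tested.

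The mRNAs of many proteins of the speckles in which Malat1 lies changed, in both directions. Of 28 tested, 10 rose and 3 fell in Id1KO against WT (46.4%, background 15%), and 3 rose and 9 fell in dKO against Id1KO (42.9%, background 19.3%). In Tet2KO against WT 4 rose and 12 fell (57.1%, background 32.8%), and in dKO against Tet2KO 14 rose and 3 fell (60.7%, background 26.4%). These genes were not matched to the background for count level, so the shares are not a like comparison. Clk4, a kinase of SR splicing factors, was at 73.8 ± 2.8 CPM in WT, 85.4 ± 2.7 in Id1KO, 85.5 ± 2.1 in Tet2KO and 72.4 ± 3.8 in dKO, and Clk1, a related kinase, at 215 ± 4.7, 239 ± 13, 235 ± 4.5 and 209 ± 8.6. Both were higher with either label alone than with neither or both. Srrm2, a scaffold of speckles, was at 537 ± 29, 488 ± 17, 677 ± 21 and 665 ± 12. It fell in Id1KO against WT (-0.14, 0.0129), where Malat1 rose, but not past the threshold without WT library 1 or Id1KO library 3 (up to 0.0957). It rose in dKO against Id1KO (0.45, 1.94e-08), where Malat1 fell, and in Tet2KO against WT (0.33, 5.30e-07), where Malat1 did not pass. Son, another scaffold, differed by 0.07 in its 1 call (Tet2KO against WT, 0.0438). That call ended under a replicate block (0.0715) and when any 1 of 5 libraries was left out (up to 0.112).

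Of 15 tested genes that process Malat1 or its tRNA-like tail, 1 rose and 6 fell in Tet2KO against WT (46.7%, background 32.8%), with a median of -0.17. In Id1KO against WT 2 rose (13.3%, background 15%). Mettl16, a methyltransferase that binds the triple helix at the end of Malat1, was at 65.5 ± 3 CPM in WT, 80.2 ± 1.2 in Id1KO, 62.8 ± 2.5 in Tet2KO and 76 ± 2.9 in dKO, so it rose with the Id1KO label on both backgrounds (0.29, 4.56e-05, and 0.27, 6.24e-05). Elac2, the RNase Z that trims the tail, fell in Tet2KO against WT (-0.19, 0.00178). Rpph1, the RNA of RNase P, which makes the first cut, was at 9490 ± 570, 8900 ± 740, 8347 ± 130 and 8795 ± 970 and passed in Tet2KO against WT (-0.19, 0.0253), but not in DESeq2 (0.121) or when any 1 of 5 libraries was left out (up to 0.15).

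Neat1, next to Malat1 on chromosome 19 at 5824708 to 5845478, minus strand, did not pass in any of the 6 contrasts in edgeR or in DESeq2, but its calls depended on the filter and the libraries used. An unadjusted p under 0.05 was reached in 1 contrast in edgeR, dKO against Id1KO, and in 0 in DESeq2. It was at 803, 662 and 699 CPM in WT, 668, 655 and 701 in Id1KO, 753, 789 and 761 in Tet2KO and 720, 754 and 711 in dKO. WT library 1, which stood apart, has the highest value of all 12, and the other 2 WT libraries are below all of Tet2KO. Tet2KO against WT was at 0.09 (interval -0.00 to 0.18, adjusted p = 0.165), but 0.18 with an adjusted p of 0.000828 without that library, when dKO against Id1KO also passed (0.11, 0.0192). Without WT library 2 it was Id1KO against WT that passed (-0.15, 0.0365). With no filter on low counts Neat1 passed in Tet2KO against WT (0.08, 0.043), Id1KO against WT (-0.11, 0.00648) and dKO against Id1KO (0.11, 0.00493), and with only the libraries compared in dKO against Id1KO (0.11, 0.0372). Malat1 per Neat1 read was 6.53 ± 0.46 in WT, 8.07 ± 0.22 in Id1KO, 6.09 ± 0.052 in Tet2KO and 6.5 ± 0.084 in dKO.

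Genes of paraspeckle proteins, which coat Neat1, passed about as often as others in Tet2KO against WT, with 1 of 24 higher and 6 lower (29.2%, background 32.8%). Pspc1, one of its core binders, was at 65 ± 1.3 CPM in WT, 55.8 ± 0.73 in Id1KO, 57.9 ± 2.5 in Tet2KO and 65.4 ± 1 in dKO, lower with either label alone. Hnrnpk and Hnrnph1, a pair of RNA-binding proteins, were at -0.07 (0.046) and -0.09 (0.0368) in Tet2KO against WT. Both calls ended under a replicate block (0.0745 and 0.0514), that of Hnrnpk when any 1 of 10 libraries was left out (up to 0.159) and that of Hnrnph1 for any 1 of 7 (up to 0.146).

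Levels of different genes can be set side by side only per kilobase of exon. On that scale Malat1 was at 699 CPM per kilobase over all libraries, Gas5 at 179, Snhg1 at 71.3, Neat1 at 34.8, Snhg3 at 26.3 and Kcnq1ot1 at 3.21. Neat1, which ranks with Gas5 by CPM alone, falls behind Snhg1 here because its annotated exon is 20771 bases long. Together the 10 RNAs held 0.636 to 0.749% of counts, most of it Malat1, and the share was highest in Id1KO.

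Other long noncoding RNAs of the nucleus were read beside these. Of 19 tested, 5 rose and 8 fell in Tet2KO against WT (68.4%, where 32.8% of all genes tested passed), with a median of -0.22. Of 877 tested genes of a long noncoding type outside the followed set, 78 rose and 65 fell (16.3%), with a median of 0.01. The 877 can include genes of the 19, and the groups were not matched for count level. Their shares are therefore not a like comparison. Mir17hg, the host of the miR-17 family cluster, went from 31.2 ± 2 CPM in WT to 21.6 ± 1.1 in Tet2KO, 29 ± 1.5 in Id1KO and 26.3 ± 0.51 in dKO. Rn7sk, the RNA that holds the elongation factor P-TEFb inactive, was at 26763 ± 850, 22449 ± 630, 25281 ± 360 and 21065 ± 1800 in the order WT, Id1KO, Tet2KO, dKO, and fell with the Id1KO label by 0.25 against WT (0.000303) and 0.26 against Tet2KO (9.62e-05).

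Genes with the most similar pattern were found by Pearson's r of log2 CPM over the 12 libraries, as a description only, since the libraries share genotypes and may share cells. Kcnq1ot1 was nearest to Mki67, a protein of dividing cells (0.984), and Pcbp2, a poly(C)-binding protein (0.977). Pcbp2 also rose from Tet2KO to dKO (0.26, adjusted p = 1.05e-05), and Mki67 was at 0.04 there (0.276). Malat1 was nearest to Otud4, a deubiquitinase (0.969), and Prpf38b, a splicing factor (0.964), and Neat1 to Arhgap11a (0.919) and Polr3c (0.891). Gas5 was nearest to Cd24a, a surface glycoprotein (0.976), and Rftn1 (0.975), Snhg1 to Gas5 (0.968) and Xist (0.957), and Snhg3 to Slk and Eif4a2 (both 0.942). Snhg1 thus had another host as its nearest gene out of all those compared.

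Markers of other cell types differed between the genotypes too. The 5 erythroid markers, all tested and none at 0, summed to 33.1 to 35.9 CPM in WT, 29.2 to 34.7 in Id1KO, 17.1 to 18.9 in Tet2KO and 45.9 to 47.6 in dKO, so along the Tet2KO label they went down against WT and up against Id1KO, whereas Gas5, Snhg1 and Snhg3 were low both times. The 5 mature myeloid markers, 4 of them tested, summed to 181 to 188, 165 to 170, 221 to 226 and 195 to 204 CPM in the same order, higher in both genotypes with higher Kcnq1ot1. Most of that sum was Csf1r, the receptor of a macrophage growth factor (144 CPM in WT, 175 in Tet2KO), and Itgam, an integrin of myeloid cells, went the other way in dKO (-0.36 against WT, adjusted p = 6.73e-05, and -0.30 against Id1KO, 0.000523). The 10 stromal and endothelial markers, 5 of them tested, summed to 36.1 to 38.6 CPM in WT, 42 to 42.7 in Id1KO, 55.6 to 57.8 in Tet2KO and 43.9 to 45.1 in dKO. Pdgfrb made up most of this sum (29 CPM in WT, 44.2 in Tet2KO), and 4 of the 10 had at most 3 counts in every library. The 4 mast and basophil markers, all tested, were at 116 to 123, 113 to 122, 135 to 138 and 117 to 120, highest in Tet2KO. The 7 T and NK markers, 2 of them tested, stayed low but were higher with the Tet2KO label, at 1.13 to 1.61, 0.77 to 1.35, 2.26 to 2.33 and 2.16 to 2.6. The 4 B cell markers, 3 of them tested, were at 21.9 to 25, 21.1 to 23.6, 26.9 to 29.2 and 19.8 to 23. No marker of these lists was at 0 in all libraries. The part of such cells in the results was not tested.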

How the data were processed

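Donor Lin- ckit+ marrow cells of 4 genotypes were measured by total RNA sequencing, 3 libraries each. The authors aligned with STAR and estimated expression with RSEM on mm10, per the submitters' processing notes; versions, annotation release and strand setting were not given in the sources used here. Values in the deposited table are RSEM expected counts, one per gene and library, not normalized by the authors, with 8.25% of genes not whole in some library. All 55450 identifiers matched GENCODE M21 (GRCm38), which gave positions and exon lengths.

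Estimated counts were rounded. edgeR 4.0.16 (R 4.3.3) kept 14346 genes by filterByExpr with a minimum count of 10, scaled by TMM and fitted 1 mean per genotype over 12 libraries. Quasi-likelihood F-tests of 6 contrasts were two-sided and adjusted by Benjamini-Hochberg over all genes tested, at 0.05. CPM are the TMM-scaled counts per 1000000 counts, the SE of a log2 fold change is its size divided by the root of F, and intervals use 1.96 SE. With 3 libraries against 3, an exact permutation test cannot go below 0.1, and none was used. Single-library depth limits counts near 0, and intervals cover counting error and library spread only.

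The members and gene lists were chosen with earlier results of these data known. Named genes were the members, Tet2 and Id1, from each list up to 3 genes called in most contrasts and the 2 most abundant, overlapping genes of at least 1 CPM, and per member the 2 genes of at least 5 CPM with the highest Pearson's r (log2 CPM with 0.5 added). Marker lists are given as sums. Flt3, Gata2, Csf1r, Itgam, Begain, Snhg9, Snhg17 and Snhg20 were named after their values were seen. Script checks used simulated data. Alternatives were RLE scaling, scaling without mitochondrial and small structural RNAs, DESeq2 1.42.0, other filters, fewer libraries, a replicate block, each library left out, summed libraries and a threshold of 0.01. Leaving out WT library 1 and dKO library 2 together was added after seeing the data. Python 3.11.15 made the tables. Some genes that the naming rule chose from these lists are counted in them but are not reported here by name.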

Additional observations from a re-analysis of the deposited data

Results flagged for a closer look

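For 5 RNAs the change that went with the Id1KO label differed between libraries with and without the Tet2KO label, by edgeR's test of that difference over 12 libraries. The values are log2 changes from Tet2KO to dKO less those from WT to Id1KO. Snora73b differed most, by 0.65 ± 0.08 (SE, adjusted p = 8.99e-06): it fell from 128 to 82.5 CPM between WT and Id1KO and was at 99.8 and 101 CPM in Tet2KO and dKO. Snora73a, its near-identical neighbour, differed by 0.41 ± 0.07 (0.000453), with levels of 260, 159, 194 and 157 CPM in the same order. Their host Snhg3 was at -0.06 (interval -0.23 to 0.11), which did not pass.

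Kcnq1ot1 differed by 0.23 ± 0.05 (adjusted p = 0.00299): it was at 241 CPM in both WT and Id1KO and rose from 329 to 386 CPM between Tet2KO and dKO. Malat1 differed by -0.20 ± 0.04 (0.00273): it rose from 4687 to 5442 CPM between WT and Id1KO and was at 4676 and 4733 CPM in Tet2KO and dKO. Snhg1 differed by 0.17 ± 0.05 (0.0255), a call that 5 of the fits without 1 library lost. Interactions passed for 14.5% of all genes tested.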

How the results depend on the processing

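Of 36 member log2 fold changes, 744 alternative values kept direction and side of the threshold in 686, lost a call in 22, gained one in 9 and changed sign in 27. Of 162 called values of other named genes, 3356 alternatives kept both in 3026, lost the call in 319 and changed sign in 11.

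Summing the libraries of a genotype had the largest effect and left 1 residual degree of freedom. Members called in edgeR were then 1 in Tet2KO against WT, 0 in Id1KO against WT, 0 in dKO against WT, 0 in dKO against Tet2KO and, for dKO against Id1KO, 1, with an unadjusted p under 0.05 for 4, 1, 3, 1 and 4. Over all genes the calls went from 4699, 2156, 2754, 3793 and 2762 to 232, 7, 11, 7 and 232. This fit also turned Snhg1 in dKO against Tet2KO to -0.04, Clk1 in Id1KO and Tet2KO against WT to -0.00 and -0.03, Clk4 in both to -0.01, Pspc1 in Tet2KO against WT and dKO against Tet2KO to 0.03 and -0.02, Snora73b in dKO against Id1KO to -0.03, Snhg5, Uhrf1 and Wars in Id1KO against WT to 0.00, 0.00 and 0.04, and Xist in dKO against Tet2KO to -0.90. It allows no interaction, so values that differ by background cannot keep their size.

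At an adjusted p under 0.01, 1 member was called in Id1KO against WT, and without 1 library the count there was 1 to 2. DESeq2 changed no member's call, but over all genes gave 1374 in place of 2156 in Id1KO against WT and 1286 in place of 2078 for the interaction. Leaving out WT library 1 and dKO library 2 together called 2 members in dKO against Tet2KO (Neat1 at -0.10), called Neat1 in Tet2KO against WT too (0.17, adjusted p = 0.000216), and turned Malat1 in Tet2KO against WT to 0.02 and in dKO against Tet2KO to -0.01, Neat1's interaction to -0.09 and Snhg3 in dKO against Tet2KO to -0.05. Without a filter Kcnq1ot1 in Id1KO against WT was -0.00, and Neat1 passed in Tet2KO against WT (0.043), Id1KO against WT (0.00648) and dKO against Id1KO (0.00493).

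Values near 0 that changed sign without 1 library ranged from -0.02 to 0.01 (Gas5, dKO against Tet2KO), -0.01 to 0.03 (Kcnq1ot1, Id1KO against WT), -0.01 to 0.03 (Malat1, Tet2KO against WT), -0.01 to 0.03 (Malat1, dKO against Tet2KO), -0.01 to 0.04 (Malat1, dKO against WT), -0.04 to 0.10 (Neat1, dKO against WT), -0.07 to 0.07 (Neat1, interaction) and -0.06 to 0.07 (Snhg3, dKO against Tet2KO). None of these was called. The cause of these changes was not tested.

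Replicate numbers come from title suffixes and pair nothing by the labels. Deviations of same-numbered libraries correlated at -0.348 to 0.133, 3 of 18 above 0.1, and 14 of 36 best matches had the same number. With a replicate block 4, 2, 4, 1, 5 and 3 members were called in the 6 contrasts, and 4523 genes in Tet2KO against WT. It ended 12 of 181 calls of named genes, among them Snord22 (adjusted p = 0.0551), Hnrnpk (0.0745), Hnrnph1 (0.0514), Son (0.0715) and Uhrf1 (0.0739).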
